A study of Rattus norvegicus with 18 samples.

Results

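Livers of Sprague-Dawley rats after 18 weeks of diethylnitrosamine treatment were compared with livers after 12 weeks, using the 3 arrays titled for each time, which are 6 of the 18 arrays of the series. The arrays were Affymetrix rat whole-genome expression arrays, and the remaining 12 held normal liver and livers after 5, 8 and 16 weeks of treatment. All groups were of the same strain, the labels name no genetic modification, and tissue was taken from the middle of the right liver lobe. The labels give the same age, 12 weeks, for every sample, so the age at each time of treatment is not settled by them, and neither the dose nor the sex nor the hour of tissue collection is given in the sources used here. There was no untreated liver collected alongside the 12-week or the 18-week livers, so time on treatment cannot be told apart from age. The 3 arrays of a group are called technical replicates in the labels, and the number of rats behind them is not given. The p values therefore reflect the spread from array to array alone, and that spread may be technical.

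Diethylnitrosamine is a nitrosamine that cytochrome P450 enzymes of the liver turn into a DNA-alkylating agent, and prolonged treatment of rats leads through altered hepatocyte foci and fibrosis to hepatocellular tumours. Hepatocytes make up most of the liver's mass and carry its lipid, bile acid, steroid and xenobiotic metabolism, much of which follows a daily rhythm set by the circadian clock and by feeding, and in rats a sex-specific pattern set by growth hormone. Stellate cells lay down collagen in injured liver, and mast cells, macrophages and neutrophils gather in the scarred areas.

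Each array gave a signal for 31099 probe sets on a linear scale. Changes are given as the difference in log2(signal + 16) between 18 and 12 weeks, with its standard error from limma (n = 3 arrays per group), and signals are given per array or as mean ± SD (n = 3). The standard error rests on the spread within all 6 groups. It can therefore be wide for a gene whose 12-week and 18-week arrays do not overlap. A gene is said to have risen or fallen where its adjusted p was under 0.05 and its change at least 2-fold in limma. Genes with an adjusted p under 0.05 and a smaller change are called higher or lower. A change that involves a group mean below 94.7, the cut of the filter for dim probe sets, depends in its size on the added 16 and is no exact fold. Signals of different probe sets are not comparable with each other as levels of their transcripts. Signals above 11139, the 99th percentile on these 6 arrays, may lie near saturation, which was not tested.

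The arrays of each time agreed closely, with correlations across genes of 0.989 to 0.991 within a time and 0.976 to 0.980 between the times (across genes, which are not independent replicates). The median absolute change over genes was 0.16 on the log2 scale, against a median SD within a time of 0.09. The Gapdh 3'/5' control ratio, a measure of RNA integrity, was 1.23 ± 0.0185 at 12 weeks and 1.32 ± 0.0134 at 18 weeks, and the beta-actin ratio 2.69 ± 0.11 and 2.29 ± 0.0951. The arrays of the 2 times did not overlap in either ratio (exact two-sided permutation p = 0.1 for each, the smallest that 3 against 3 arrays allow), and the ratios moved in opposite directions. The median signal of an array was 169 ± 4.9 at 12 weeks and 145 ± 7.64 at 18 weeks. Change also depended on signal: over 5 equal groups of genes from the dimmest to the brightest the median change was -0.17, -0.08, -0.03, 0.04 and 0.10, and after quantile normalization it was 0.02 to 0.03 in each. Hepatocyte markers were strong at both times, with the 6 markers Alb, Ttr, Apoa1, Serpina1, Cps1 and Tf summing to 163590 to 181409 per array at 12 weeks and 162704 to 177042 at 18 weeks.

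Between 12 and 18 weeks, 99 of 10451 genes changed (0.947%). Of 18608 probe sets tested one by one, 241 changed (1.3%). At 18 weeks 38 genes were higher (0.364%) and 61 lower (0.584%). For all 99 the 3 arrays of 1 time lay wholly above those of the other, which was true of 42% of all genes tested. A lack of overlap in a changed gene below therefore adds nothing to its call. With no fold threshold, 1355 genes were higher (13%) and 1070 lower (10.2%), and the median change over all genes was -0.01. List counts below are read against these shares: 0.364% rose and 0.584% fell, and 13% were higher and 10.2% lower with no fold threshold. The split between rises and falls depended on scaling, with 38.4% of changed genes higher as deposited, 68 higher and 46 lower (59.6%) after centring each array on its median, and 49 higher and 57 lower after quantile normalization. Median centring moved the median change of all genes to 0.18 and quantile normalization to 0.03. Of the 99 genes, 26 had a mean below 94.7 at 12 or 18 weeks, and 48 were called in the same direction under all 20 other settings that kept the 2-fold threshold (25 higher, 23 lower). A gene not tested under a setting counts as not called there. The filter at the 60th percentile, which leaves out dimmer genes, kept 68 of the 99 calls. Fewer cells of a type and less RNA per cell cannot be told apart in these whole-tissue samples.

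**Figure D1:**
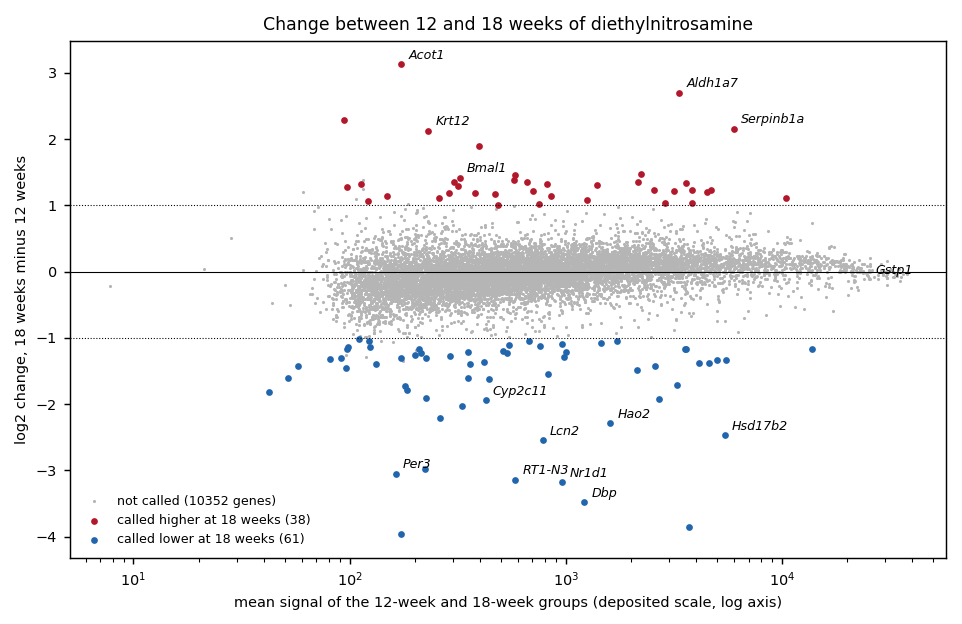
Log2 change between 12 and 18 weeks (vertical) against the mean signal of both groups (horizontal, log axis) for 10451 genes, each a point. The 38 genes called higher are red and the 61 called lower are blue, dotted lines mark a 2-fold change, and most genes lie close to 0, drifting from slightly below it among dim genes to slightly above it among bright ones.

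Circadian clock genes made up 9 of the 99 genes that changed. The clock turns on a loop in which BMAL1, paired with CLOCK or NPAS2, switches on the Per, Cry and Nr1d genes through E-box elements, PER and CRY proteins then hold BMAL1 back, and the REV-ERB proteins made from Nr1d1 and Nr1d2 repress Bmal1 through RORE elements. Of 20 measured members 4 rose and 5 fell, against 0.364% and 0.584% of all genes, and with no fold threshold 5 were higher and 10 lower, with a list median of -0.32. The hour of collection is not given for any group, and its part in these values was not tested. The 300 bases around a start of 4 of these genes are shown because they carry, or in Dbp lack, the loop's binding letters. They run from 250 bases before to 50 bases after the start, 5′ to 3′ on the gene's strand, from RefSeq on GRCr8. Capitals mark an E-box (CACGTG) or a RORE (a motif added after the data were seen). Nr1d1 has 2 windows, and the one shown is at a start inside the gene, chosen because it holds an E-box; the window at the outer start (chr10:84231763-84232062) holds none of the motifs searched.
Bmal1 (chr1:176766078-176766377, plus strand): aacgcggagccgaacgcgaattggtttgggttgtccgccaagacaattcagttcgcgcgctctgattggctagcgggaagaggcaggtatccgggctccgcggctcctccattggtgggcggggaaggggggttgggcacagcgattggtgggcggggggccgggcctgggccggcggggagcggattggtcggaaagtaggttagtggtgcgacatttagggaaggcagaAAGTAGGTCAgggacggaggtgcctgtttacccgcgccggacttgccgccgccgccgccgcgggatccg
Nr1d1 (chr10:84229405-84229704, minus strand): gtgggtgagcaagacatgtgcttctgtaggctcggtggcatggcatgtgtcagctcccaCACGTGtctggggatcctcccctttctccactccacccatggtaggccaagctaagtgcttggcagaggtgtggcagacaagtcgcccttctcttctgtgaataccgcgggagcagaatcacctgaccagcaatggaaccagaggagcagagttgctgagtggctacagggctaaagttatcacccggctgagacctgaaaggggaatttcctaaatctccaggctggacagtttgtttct
Bhlhe41 (chr4:180569306-180569605, minus strand): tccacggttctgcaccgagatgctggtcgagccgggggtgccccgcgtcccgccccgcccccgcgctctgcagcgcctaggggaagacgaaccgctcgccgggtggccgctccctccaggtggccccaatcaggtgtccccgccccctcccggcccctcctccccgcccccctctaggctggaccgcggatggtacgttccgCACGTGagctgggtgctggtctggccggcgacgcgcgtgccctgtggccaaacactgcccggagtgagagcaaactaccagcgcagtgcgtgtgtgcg
Dbp (chr1:105312006-105312305, plus strand): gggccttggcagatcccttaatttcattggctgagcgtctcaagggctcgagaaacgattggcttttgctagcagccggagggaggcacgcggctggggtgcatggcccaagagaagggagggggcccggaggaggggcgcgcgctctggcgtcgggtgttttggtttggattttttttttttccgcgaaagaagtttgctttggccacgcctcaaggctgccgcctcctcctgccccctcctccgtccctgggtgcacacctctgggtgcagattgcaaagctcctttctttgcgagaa

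The RORE of Bmal1, which rose, began 19 bases before the start, the E-box of Nr1d1, which fell, 191 bases before the inner of its 2 starts, and that of Bhlhe41, which fell, 48 bases before the start. Both strands were searched in 21 windows of 18 of the 20 clock genes, with no overlap between motifs. Among all 33469 windows of this length the E-box stood in 6.42%, the RORE in 0.245% and the D-box TTATGTAA, read by DBP, TEF and NFIL3, in 0.893%. E-boxes also stood in the windows of Tef and Bhlhe40 and a D-box in that of Per2, and neither E-box nor D-box was in the window of Dbp. The windows of Per3, Nr1d2, Nfil3 and Noct, which also changed, held none of the motifs searched. These matches describe letters only.

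Among the genes that BMAL1 activates, Dbp, a transcription factor that drives daily rhythms of liver metabolism, had signals of 2313, 2243 and 2158 at 12 weeks and 218, 181 and 162 at 18 weeks. All 18-week arrays were far below all 12-week arrays, and Dbp fell by 3.48 on the log2 scale (SE 0.13, adjusted p = 2.08e-10, limma). Nr1d1, which encodes the repressor REV-ERB alpha, had 1770, 1754 and 1716 at 12 weeks and 174, 183 and 180 at 18 weeks. Its change was -3.18 ± 0.12 (adjusted p = 2.1e-10, limma). The related Nr1d2, named after its values were seen, went from 1262, 1258 and 1210 to 419, 423 and 405, a change of -1.54 ± 0.0975. Per3, a period gene, had 360, 248 and 307 at 12 weeks and 19.5, 21.3 and 26.4 at 18 weeks, the last below the filter level. Its change was -3.05 ± 0.33 (adjusted p = 1.54e-05, limma). Bhlhe41, a repressor that competes for E-boxes, had 579, 508 and 534 at 12 weeks and 132, 148 and 89.5 at 18 weeks, a change of -2.02 ± 0.19. The 12-week and 18-week arrays did not overlap for any of these 5 genes.

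Another 4 members rose. Bmal1, the activator itself, had 145, 140 and 228 at 12 weeks and 438, 494 and 488 at 18 weeks. Its lowest 18-week array was above its highest 12-week array, and it rose by 1.42 ± 0.16 (adjusted p = 2.39e-05, limma). Cry1, a repressor of BMAL1, had 196, 220 and 124 at 12 weeks and 450, 442 and 462 at 18 weeks, a rise of 1.29 ± 0.15. Nfil3, which represses the genes that DBP activates, had 450, 401 and 409 at 12 weeks and 916, 1017 and 1055 at 18 weeks, a rise of 1.21 ± 0.0781. Noct, a rhythmic phosphatase of nicotinamide dinucleotides also known as nocturnin, had 158, 179 and 173 at 12 weeks and 470, 399 and 356 at 18 weeks, a rise of 1.18 ± 0.11. Each of these genes had its 3 arrays at 18 weeks above its 3 at 12 weeks. Npas2, the partner of BMAL1, was higher by 0.69 ± 0.11 (adjusted p = 0.000582, limma), short of 2-fold. Per2 (-0.82 ± 0.11), Tef (-0.83 ± 0.15), Bhlhe40 (-0.83 ± 0.11) and the ubiquitin protease Usp2 (-0.83 ± 0.12) were lower, and a second probe set of Bhlhe40 had a change of -1.55. Npas2, Tef, Bhlhe40 and Usp2 were named after their values were seen.

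The other times showed wide swings in the same genes. Dbp averaged 506 in normal liver, 122 after 5 weeks, 1460 after 8 weeks and 271 after 16 weeks, and Nr1d1 averaged 719, 94.6, 1983 and 377. Bmal1 had means of 418, 719, 273 and 378 at these times. The 12-week livers thus held the highest Dbp and the lowest Bmal1 mean of the 6 groups, while the 18-week means were 187 ± 28.4 and 474 ± 30.9.

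**Figure D2:**
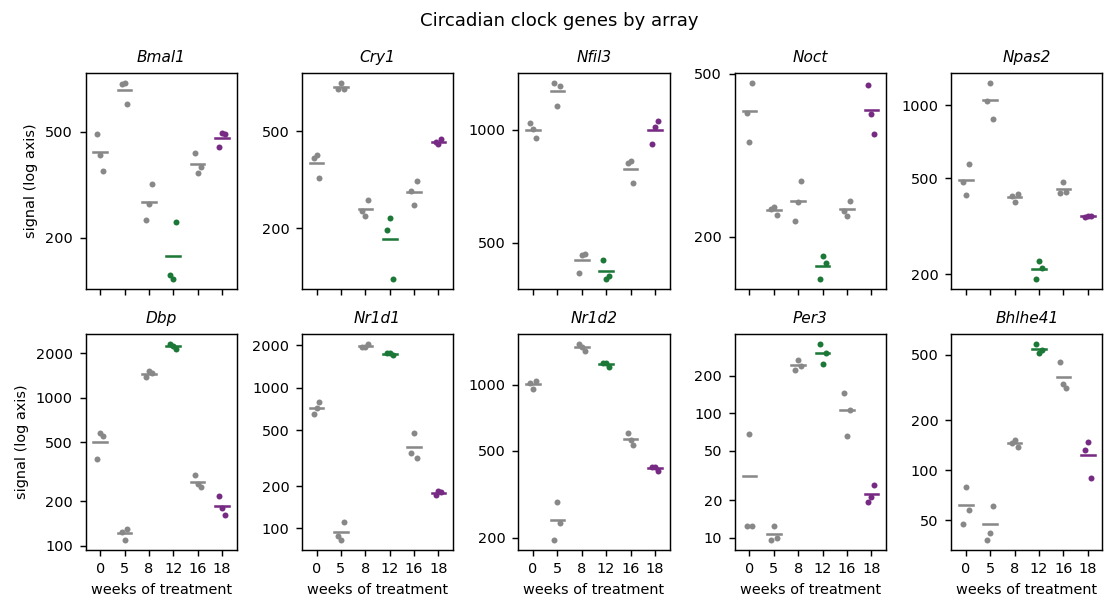
Signal of 10 clock genes (vertical, log axis) by weeks of treatment, where 0 is normal liver. Points are arrays, bars are means of 3 arrays, 12 weeks is green and 18 weeks purple, and the upper row (Bmal1 to Npas2) lies higher and the lower row (Dbp to Bhlhe41) lower at 18 than at 12 weeks.

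Genes of fatty acid oxidation and ketogenesis were mostly higher at 18 weeks. Of 36 measured members 3 rose and none fell, and with no fold threshold 22 were higher (61.1%, against 13% of all genes) and 2 lower, with a list median of 0.29. Acot1, a cytosolic thioesterase that releases free fatty acids from acyl-CoA, had 28.6, 6.51 and 40.3 at 12 weeks and 307, 360 and 300 at 18 weeks. The 12-week arrays were below the filter level and the rise of 3.13 ± 0.40 (adjusted p = 6.41e-05, limma) is no exact fold. Vnn1, which releases pantothenate from pantetheine, had 279, 284 and 281 at 12 weeks and 742, 632 and 594 at 18 weeks, with every 18-week array above every 12-week array. It rose by 1.17 ± 0.075. Eci1, a mitochondrial isomerase for unsaturated fatty acids, rose from 2476, 2577 and 2485 to 5148, 5081 and 5169. Its rise of 1.03 ± 0.0455 was 0.99 after quantile normalization and 0.65 as the mean of its probe sets, both short of 2-fold. Genes named after their values were seen that were higher by less than 2-fold were the mitochondrial thioesterase Acot2 (0.77 ± 0.0841) and the dienoyl-CoA reductase Decr1 (0.56 ± 0.048). Another probe set of Acot2 rose by 1.26, and those at 0.35 and 0.53 did not pass. Cpt1a, which passes fatty acids into mitochondria, was lower (-0.28 ± 0.0772, adjusted p = 0.0158, limma).

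Of 29 measured genes of fatty acid synthesis and storage 4 fell and none rose, and with no fold threshold 16 were lower (55.2%, against 10.2% of all genes) and 7 higher, with a list median of -0.29. After median centring 1 fell, and 8 were lower and 9 higher, with a median of -0.09. Thrsp, an insulin- and thyroid-responsive promoter of lipogenesis, had 7806, 7946 and 8026 at 12 weeks and 3177, 3130 and 3116 at 18 weeks. The times did not overlap, its change was -1.33 ± 0.0393 (adjusted p = 1.28e-11, limma), and both other probe sets of Thrsp fell. Scd, the desaturase that makes oleate, had 5001, 4990 and 5004 at 12 weeks and 2316, 2213 and 2102 at 18 weeks. Its change was -1.17 ± 0.0659, and it was -0.98 after median centring. Fads2, a desaturase of polyunsaturated fatty acids, had 2042, 1886 and 1967 at 12 weeks and 980, 982 and 826 at 18 weeks. The times did not overlap for Scd or for Fads2. The change of Fads2, -1.07 ± 0.0639, was -0.88 after median centring and -0.99 without array 3 of 18 weeks. Acacb, the acetyl-CoA carboxylase of the mitochondrial surface, was dim, with 123, 183 and 116 against 61.2, 58.7 and 40. Its change of -1.17 ± 0.27 was -0.91 after quantile normalization and -0.98 without array 2 of 12 weeks. Fads1 (-0.74 ± 0.0679) and the phosphatidate phosphatase Lpin1 (-0.84 ± 0.0785), named after their values were seen, and the fatty acid synthase Fasn (-0.28 ± 0.0708) were lower, while the lipid droplet coat gene Plin2, also named after its values were seen, was higher (0.65 ± 0.0406). Thrsp and Scd were also below their 12-week means at 16 weeks, at 2532 and 1025.

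Among genes of gluconeogenesis and glycogen, 2 of 24 rose and none fell, and the median was -0.01, or 3 and 0.18 after median centring. Igfbp1, a secreted binder of insulin-like growth factors that insulin suppresses, had 2841, 2846 and 2709 at 12 weeks and 6745, 6670 and 6358 at 18 weeks. Every 18-week array was above every 12-week array, and the rise was 1.23 ± 0.0528 (adjusted p = 7.77e-10, limma). G6pc1, the glucose-6-phosphatase that releases glucose from the liver, had 1908, 1684 and 2085 at 12 weeks and 4023, 3530 and 4034 at 18 weeks. Its rise of 1.03 ± 0.0696 was 0.95 without array 2 of 12 weeks and 0.99 without array 3 of 18 weeks, and also just under 2-fold without array 1 of 18 weeks, and its other probe set rose by 1.81. Pck1, at the entry to gluconeogenesis, was higher by 0.23 ± 0.0554. Igfbp2 also rose, from 1603, 1506 and 1463 to 3647, 3746 and 3431 (1.23 ± 0.0706), and with Igfbp1 it made up the 2 changes among 18 genes of the insulin-like growth factor list. Igf2, the fetal growth factor, had means of 372 ± 52.9 and 454 ± 4.7 and did not pass the test (0.28 ± 0.43, adjusted p = 0.683, limma), although its arrays did not overlap.

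Sds, serine dehydratase, which feeds serine into gluconeogenesis, was the only one of 58 genes of the urea cycle and amino acid breakdown to fall and none rose. It had 5064, 4920 and 5001 at 12 weeks and 1499, 1539 and 1514 at 18 weeks, with no overlap, a change of -1.71 ± 0.0538 (adjusted p = 2.26e-11, limma). Cps1, the first enzyme of the urea cycle, had 19658 ± 429 and 20012 ± 561, with overlapping arrays.

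Genes of the growth hormone axis and of sex-biased liver metabolism changed in both directions. Of 29 measured members 4 fell and 1 rose, against 0.584% and 0.364% of all genes. With no fold threshold 11 were lower (37.9%, against 10.2% of all genes) and 5 higher (17.2%, against 13%), with a list median of -0.17. After median centring 9 were lower and 8 higher, with a median of 0.03. Hao2, a peroxisomal hydroxyacid oxidase, had 2662, 2676 and 2673 at 12 weeks and 565, 568 and 468 at 18 weeks, a change of -2.29 ± 0.0752 (adjusted p = 3.05e-11, limma). Cyp2c11, the main male-typical P450 of rat liver, had 712, 600 and 734 at 12 weeks and 144, 138 and 224 at 18 weeks, a change of -1.94 ± 0.13 (adjusted p = 1.02e-07, limma). Neither gene's arrays overlapped between the times, and in normal liver their means were 10329 and 20718. Sult1e1, which sulfates estrogens, went from 6650, 6613 and 6660 to 2535, 2528 and 2559 (-1.38 ± 0.0575). Car3, a carbonic anhydrase abundant in male rat liver, went from 6070, 5992 and 5818 to 2342, 2303 and 2206 (-1.38 ± 0.0707), and its second probe set also fell. The growth hormone-responsive feedback gene Cish was lower by 0.88 (-0.88 ± 0.0792), with a second probe set past 2-fold. A1bg, a plasma glycoprotein, was the member that rose, from 270, 349 and 293 to 868, 827 and 880 (1.46 ± 0.12), against 25852 in normal liver. Alpha-2u globulins, male-typical urinary carrier proteins, were dim by 12 weeks. LOC259245 had 417, 437 and 358 at 12 weeks and 16.9, 38.4 and 67.9 at 18 weeks, and LOC259246 89.5, 118 and 24 against 7.96, 8.84 and 6.09. Both fell (-2.98 ± 0.37 and -1.81 ± 0.29), but these genes are near-identical copies whose signals cannot be fully separated, and their size rests on levels below the filter. The 2 globulins and Cish were named after their values were seen.

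Hsd17b2, which inactivates estradiol and testosterone, had 9167, 9337 and 9189 at 12 weeks and 1652, 1700 and 1607 at 18 weeks, with a wide gap between the times. It fell by 2.47 (SE 0.0455, adjusted p = 8.66e-14, limma). Hsd17b2 averaged 10040 in untreated normal liver, 1560 after 5 weeks, 11523 after 8 weeks and 1398 after 16 weeks, so the 12-week livers were near normal liver and the 18-week livers near those at 5 and 16 weeks. Cyp17a1, which makes androgen precursors, rose from 174, 159 and 161 to 412, 468 and 451 (1.35 ± 0.14, adjusted p = 7.03e-06, limma). It was the only rise in the list of 39 drug-metabolising P450 genes, although it makes steroids, and Cyp2c11 was the only fall. Cyp2e1, the main activator of nitrosamines, was lower (-0.60 ± 0.0514, from 20821 ± 305 to 13747 ± 234), as was Cyp3a2 (-0.46 ± 0.049). Cyp1a2 (-0.16 ± 0.0769, adjusted p = 0.146, limma) had overlapping arrays. Star, which carries cholesterol into mitochondria, fell from 562, 665 and 791 to 194, 173 and 261 (-1.62 ± 0.30), although its other probe set did not pass (-0.48, adjusted p = 0.301 over probe sets, limma). Star was named after its values were seen.

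Among 35 conjugating enzymes 2 fell, Sult1e1 and Ugt2b1, and none rose, although 1 rose after median centring. Ugt2b1, a glucuronosyltransferase of steroids and drugs, had 7175, 7054 and 7321 at 12 weeks and 2863, 2899 and 2780 at 18 weeks (-1.33 ± 0.0373, adjusted p = 7.83e-12, limma). A provisional gene annotated as a UDP-glucuronosyltransferase, LOC286989, named after its values were seen, had 6886, 7169 and 6887 at 12 weeks and 509, 405 and 494 at 18 weeks, a change of -3.86 ± 0.18, and it averaged 34.3 in normal liver, 63.2 after 5 weeks, 826 after 8 weeks and 411 after 16 weeks. Close relatives in this family may share signal. RGD1562625, another provisional gene named in the same way, had 311, 369 and 335 at 12 weeks and 4.68, 14.5 and 2.52 at 18 weeks. Its change of -3.96 ± 0.30 was -5.64 with a pseudocount of 1 and -2.50 with one of 64, since the 18-week signals lie below the filter level.

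Aldh1a7, an aldehyde dehydrogenase closely related to Aldh1a1, was the only rise among 14 pericentral genes, and none fell. It had 873, 937 and 835 at 12 weeks and 5669, 5834 and 5913 at 18 weeks, every array of the second time being far above the first, a rise of 2.70 ± 0.0694 (adjusted p = 4.62e-12, limma). It averaged 2502 in normal liver, 7063 after 8 weeks and 9720 after 16 weeks, and the 12-week mean was the lowest of the 6 groups. Glul, the pericentral glutamine synthetase, had overlapping arrays (0.12 ± 0.0697). Fmo5, a flavin monooxygenase, and Ephx2, an epoxide hydrolase of lipid mediators, both named after their values were seen, rose by 1.20 ± 0.0491 and 1.31 ± 0.0664.

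In bile acid synthesis and transport 1 of 29 genes rose and 1 fell. With no fold threshold 12 were lower (41.4%, against 10.2% of all genes) and 5 higher (17.2%, against 13%), with a median of -0.17. After median centring 7 were lower and 8 higher, with a median of 0.03. Acox2, the peroxisomal oxidase that shortens the bile acid side chain, had 1084, 1357 and 1179 at 12 weeks and 2994, 3128 and 3155 at 18 weeks (1.35 ± 0.0701, adjusted p = 6.51e-09, limma), with no overlap. Abcg8, part of the pump that sends sterols into bile, went from 363, 341 and 274 to 99, 108 and 169 (-1.30 ± 0.20). Cyp7a1, which catalyses the limiting step of the classical bile acid pathway, had 1913 ± 88.9 and 1804 ± 128 with overlapping arrays. Among 27 cholesterol synthesis and uptake genes none rose or fell.

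None of 33 hepatocyte transcription factors rose or fell. With no fold threshold 13 were lower (39.4%, against 10.2% of all genes) and 5 higher (15.2%, against 13%), with a median of -0.31. After median centring 5 were lower and 7 higher, 1 of them by 2-fold, with a median of -0.11. Hnf4a, a central regulator of hepatocyte identity, was lower (-0.23 ± 0.0671), as were the xenobiotic receptor gene Nr1i3 (-0.80 ± 0.0531) and Foxa2 (-0.68 ± 0.0618). Cebpd, an inducible factor of the acute phase, was higher (0.95 ± 0.22) and passed 2-fold without array 2 of 12 weeks (1.15) or array 3 of 18 weeks (1.05), and after quantile normalization (1.06). Its other probe set did not pass (0.20, adjusted p = 0.22 over probe sets, limma). Nr1i3, Foxa2 and Cebpd were named after their values were seen. Alb, serum albumin, had 33522 ± 3213 and 31595 ± 1238, with overlapping arrays.

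The acute phase list split, with 2 of 31 members rising and 2 falling and a median of 0.05. A2m, the acute phase protease inhibitor of the rat, had 1161, 1168 and 1167 at 12 weeks and 3360, 3278 and 3190 at 18 weeks, a rise of 1.48 ± 0.0473 (adjusted p = 2.48e-11, limma). Serpina3m, a related secreted inhibitor, rose from 2314, 2286 and 2225 to 5570, 5428 and 5117 (1.23 ± 0.0542). Lcn2, an iron-siderophore binder made by stressed hepatocytes and neutrophils, fell from 1343, 1315 and 1379 to 209, 221 and 225 (-2.54 ± 0.13, adjusted p = 5.25e-09, limma). Its means were 142 at 8 weeks and 2258 at 16 weeks, so the 18-week livers lay well below those at 12 and 16 weeks. Mt1, metallothionein, fell from 18959, 19464 and 18569 to 8623, 8546 and 8139 (-1.17 ± 0.0643, and -0.97 after median centring). Hamp, the iron hormone hepcidin, was lower (-0.38 ± 0.0581).

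Serpinb1a, an inhibitor of neutrophil proteases, had 2162, 2162 and 2232 at 12 weeks and 9731, 9963 and 9675 at 18 weeks, and a mean of 5983 at 16 weeks. The times were far apart, the rise was 2.16 ± 0.0581 (adjusted p = 5.94e-12, limma), and a second probe set rose by 1.72. Serpinb9b, a relative of the granzyme B inhibitor, rose from 7.87, 56.9 and 10.9 to 147, 132 and 212 (2.29 ± 0.39), from below the filter level. The Serpinb9b mean was 961 in normal liver, 14 after 5 weeks, 13.6 after 8 weeks and 50.2 after 16 weeks, so the 18-week livers stayed below normal liver. Krt12, a keratin known from the cornea, rose from 67.8, 89.1 and 70.3 to 325, 387 and 445 (2.13 ± 0.28, adjusted p = 9.63e-05, limma), and its mean was 67.1 to 91.1 in the other 5 groups. Cldn1, a tight junction protein, rose from 397, 347 and 354 to 1046, 955 and 881 (1.35 ± 0.0801). Pglyrp1, which binds bacterial peptidoglycan, rose from 281, 332 and 323 to 820, 844 and 839 (1.38 ± 0.33, adjusted p = 0.00809, limma). Pdia4, a disulfide isomerase of the endoplasmic reticulum, was the only rise among 36 genes of its stress list, from 1954, 1956 and 1771 to 4671, 4628 and 3961 (1.21 ± 0.0841). Hspb1, a small heat shock protein, rose from 484, 541 and 548 to 1166, 1231 and 1139 (1.14 ± 0.0712), the only change among 18 heat shock genes. No gene fell in either list.

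**Figure D3:**
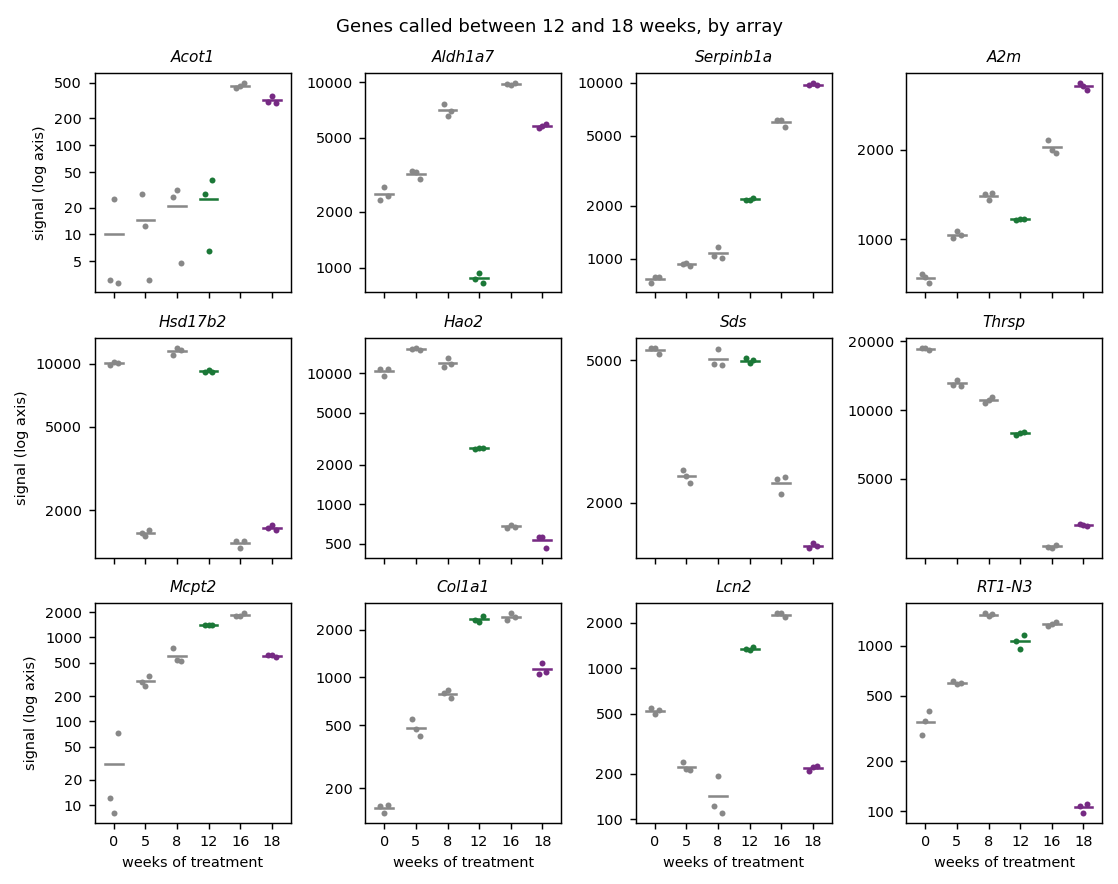
Signal of 12 genes that changed between 12 and 18 weeks (vertical, log axis) by weeks of treatment, where 0 is normal liver. Points are arrays and bars means of 3 arrays, and 12 weeks is green and 18 weeks purple. The 3 arrays of these times do not overlap in any panel, as in all 99 genes that changed. The order of the other times differs from gene to gene.

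Of 37 measured collagen and matrix genes 1 fell and none rose, and with no fold threshold 18 were lower (48.6%, against 10.2% of all genes) and 3 higher, with a median of -0.39. After median centring none fell and 2 rose, with 15 lower, 5 higher and a median of -0.19. Col1a1, the main chain of fibrous scar collagen, had 2300, 2230 and 2446 at 12 weeks and 1052, 1237 and 1087 at 18 weeks. The times did not overlap, and its change of -1.04 ± 0.0872 (adjusted p = 1.05e-06, limma) was -0.84 after median centring and -0.99 without array 1 of 18 weeks. Col3a1 was lower by less than 2-fold, from 10292, 10508 and 10220 to 6672, 6572 and 6563 (-0.65 ± 0.0415). Named after their values were seen, Col1a2 (-0.93 ± 0.11) and the chains of microfibrillar collagen, Col6a1 (-0.83 ± 0.0794), Col6a2 (-0.94 ± 0.13) and Col6a3 (-0.94 ± 0.13), stood just short of 2-fold. Col1a2 and Col6a2 reached 2-fold without array 2 of 18 weeks, Col6a2 also without array 3 of 12 weeks, and Col6a3 reached -1.01 without array 2 of 12 weeks. The other probe set of Col6a3 did not pass (-0.35, adjusted p = 0.182 over probe sets, limma), and that of Col1a2 was lower (-0.85). Ccn1 (0.83 ± 0.19) and Ccn2 (0.81 ± 0.11), matricellular targets of mechanical signalling also named after their values were seen, were higher, and passed 2-fold after median centring (1.03 and 1.01). Mean signals of Col1a1 were 151 in normal liver and 2421 at 16 weeks, so the 18-week livers held less than those at 12 and 16 weeks and more than normal liver.

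Acta2, smooth muscle actin of myofibroblasts, had 649, 580 and 652 at 12 weeks and 788, 805 and 859 at 18 weeks and did not pass the test (0.38 ± 0.16, adjusted p = 0.111, limma). No gene rose or fell among 21 stellate cell and myofibroblast genes, with 3 lower and 2 higher when no fold was asked for, and 2 lower and 3 higher after median centring. The summed signal of the 5 stellate markers Acta2, Tagln, Des, Col1a1 and Col3a1 was 14162 to 14318 per array at 12 weeks and 9459 to 9813 at 18 weeks, a sum led by Col3a1. Tgfb1, the main fibrogenic cytokine (-0.12 ± 0.15), and the protease inhibitor Timp1 (0.11 ± 0.11) did not pass. In the TGF-beta and activin list 2 of 29 rose and none fell, with a median of -0.27. With a pseudocount of 1 only 1 rose, and with one of 64 none did. Fst, follistatin, which neutralises activins, rose from 140, 174 and 159 to 333, 393 and 354 (1.11 ± 0.29, adjusted p = 0.0114, limma). Inhbb, the activin B chain, went from 88.8, 88 and 45.6 to 193, 174 and 139 (1.07 ± 0.31, adjusted p = 0.0237, limma). The change of Inhbb was 0.81, 0.97 and 1.04, with adjusted p values of 0.11, 0.0822 and 0.065 in limma, without array 3 of 12 weeks or array 1 or 2 of 18 weeks.

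Of 35 endothelial genes none rose or fell. With no fold threshold 16 were lower (45.7%, against 10.2% of all genes) and 2 higher (5.71%, against 13%), with a median of -0.23. After median centring 4 were lower and 3 higher, with a median of -0.03. Stab2 (-0.50 ± 0.0942) and Lyve1 (-0.39 ± 0.0616), scavenger and hyaluronan receptors of sinusoidal endothelium, were lower, while Kdr and Pecam1 did not pass (0.01 ± 0.0741 and -0.10 ± 0.12). The 4 markers summed to 6235 to 6306 per array at 12 weeks and 4847 to 5359 at 18 weeks. In the bile duct and progenitor list 2 of 30 fell and none rose. Dlk1, a marker of fetal hepatoblasts, went from 240, 285 and 230 to 101, 76.8 and 101 (-1.30 ± 0.27, adjusted p = 0.00306, limma). Aqp5, a water channel, went from 444, 410 and 383 to 158, 240 and 106 (-1.28 ± 0.37, adjusted p = 0.0226, limma). Aqp5 had adjusted p values of 0.0639, 0.0551, 0.0601 and 0.0922 in limma without array 1 or 2 of 12 weeks or array 1 or 3 of 18 weeks. Krt19 (0.35 ± 0.14, adjusted p = 0.0924, limma) did not pass, Epcam was lower (-0.18 ± 0.0516, but 0.02 after median centring), and Krt7 (0.78 ± 0.25) and the secreted matrix protein Spp1 (0.55 ± 0.14) were higher.

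Of 10 measured mast cell and basophil genes 4 fell, all of the Mcpt protease family, and 1 rose, against 0.584% and 0.364% of all genes. With no fold threshold 6 were lower (60%, against 10.2% of all genes) and 1 higher (10%, against 13%). The list median of -0.90 was the lowest of the 56 lists. Mcpt2, the protease of mucosal mast cells in the rat, had 1398, 1418 and 1414 at 12 weeks and 610, 612 and 582 at 18 weeks. The arrays of each time were tightly grouped and far apart (-1.21 ± 0.34, adjusted p = 0.0178, limma). Its standard error comes from the spread of all 6 groups, and with a pseudocount of 1 the adjusted p was 0.103. Mcpt9 went from 1605, 1285 and 1292 to 523, 577 and 575 (-1.29 ± 0.0989), and Mcpt10 from 749, 736 and 681 to 325, 317 and 273 (-1.20 ± 0.14). Mcpt1 went from 304, 288 and 264 to 80.1, 63.4 and 81.8 (-1.73 ± 0.33). These 4 are close relatives whose probes may share signal. Genes outside this family, named after their values were seen, were the carboxypeptidase Cpa3 (-0.90 ± 0.0993) and the IgE receptor chain Fcer1a (-0.89 ± 0.17), both lower, and Fcer1a reached 2-fold without array 2 of 18 weeks. The tryptase Tpsb2 (-0.86 ± 0.42, adjusted p = 0.159, limma) and the chymase Cma1 (-0.53 ± 0.44, adjusted p = 0.426, limma) did not pass. Hdc, which makes histamine, rose from 436, 448 and 497 to 1206, 1177 and 1133 (1.32 ± 0.073, adjusted p = 1.34e-08, limma), opposite to the proteases. The markers Cma1, Mcpt2 and Cpa3 summed to 2458 to 2774 per array at 12 weeks and 1233 to 1372 at 18 weeks.

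**Figure D4:**
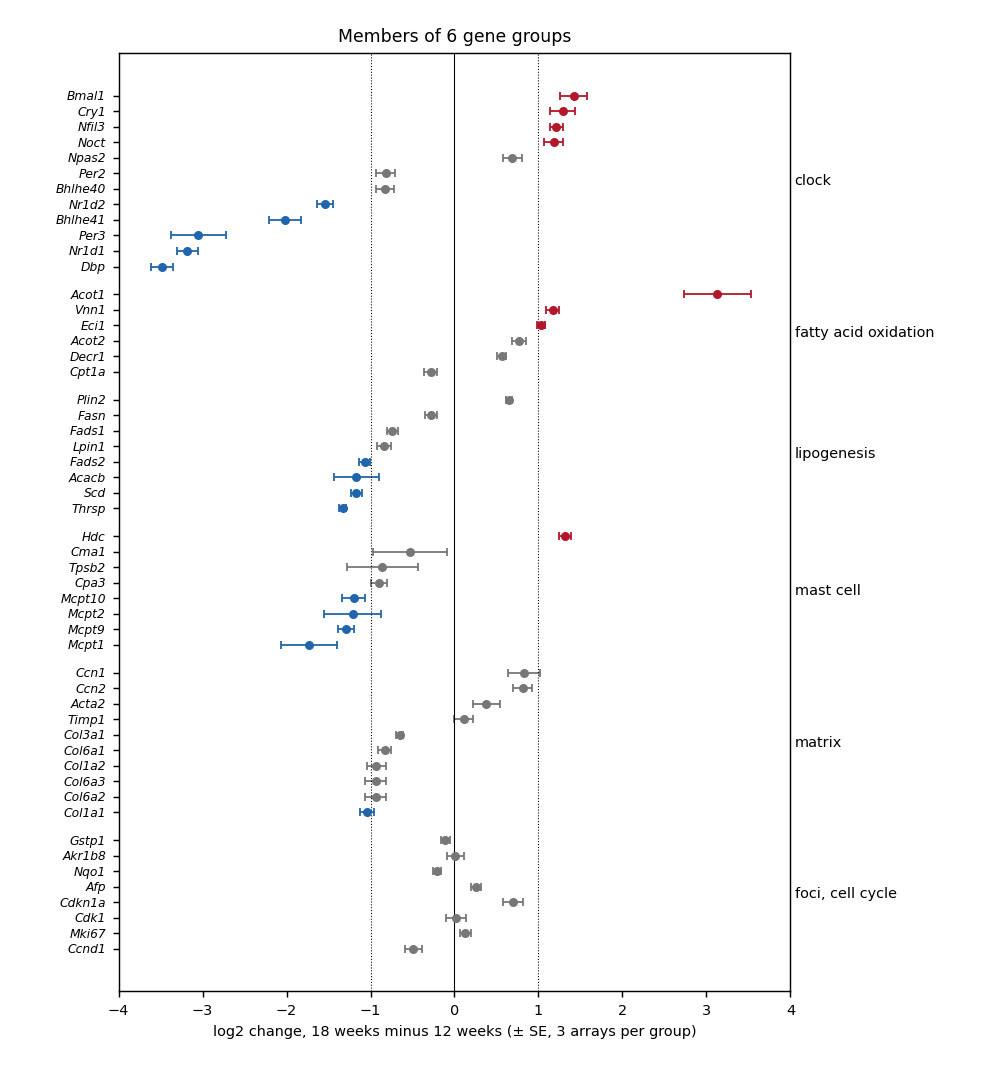
Log2 change between 12 and 18 weeks (horizontal, ± SE, n = 3 arrays per group) of named members of 6 gene groups. Red and blue genes rose or fell by at least 2-fold with an adjusted p under 0.05 and grey genes did not reach both thresholds, some of them with an adjusted p under 0.05. Among the groups plotted, clock genes span the widest range, from -3.48 for Dbp to 1.42 for Bmal1, and the markers of foci and the cell cycle lie within 1 of 0.

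The neutrophil calprotectin genes S100a8 (0.69 ± 0.0814) and S100a9 (0.66 ± 0.053) were higher, with a summed signal of 2470 to 2621 per array at 12 weeks and 3857 to 4224 at 18 weeks. In the neutrophil and granule list, however, 2 of 9 fell, Lcn2 and the defensin RatNP-3b, and none rose. RatNP-3b went from 111, 59.6 and 87.7 to 11.4, 20.2 and 20.3 (-1.60 ± 0.25, and -0.87 with a pseudocount of 64), with means below the filter level at both times. None of 18 Kupffer cell genes, 25 genes of recruited macrophages, 22 T and NK cell genes, 12 B and plasma cell genes or 10 class II presentation genes rose or fell, where 0.947% of all genes did. With no fold threshold 9 recruited macrophage genes were higher (36%, against 13% of all genes) and 1 lower. Of the class II genes 4 were higher (40%) and 1 lower. Kupffer cell genes had 3 higher and 3 lower, T and NK cell genes 4 and 2, and B and plasma cell genes 1 and 2. After quantile normalization recruited macrophage genes had 6 higher and 2 lower, and class II genes 2 and 1. After median centring these counts were 12 and 1, and 7 and 0. The 4 measured macrophage markers Cd68, Cd163, Clec4f and C1qa summed to 15955 to 16465 at 12 weeks and 14902 to 16148 at 18 weeks. Red cell genes were higher, Hbb by 0.42 ± 0.0487 and Alas2 by 0.53 ± 0.11, with a sum of 8819 to 9425 at 12 weeks and 12268 to 12466 at 18 weeks. The part of blood content or of cell numbers in the other results was not tested. Single genes known from tissues next to or within the liver also fell: Cela1, a pancreatic elastase (-1.16 ± 0.20), Gpm6a, a membrane glycoprotein of nerve and mesothelium (-1.91 ± 0.12), and Scn7a, a glial sodium channel (-1.39 ± 0.14). Each was the only change in its list of 9, 7 and 7 genes as deposited. The pancreas list had 1 rise and no fall after median centring, 1 of each after quantile normalization and neither with a pseudocount of 64. The 18-week means of Gpm6a (85.6) and Scn7a (65.6) were below the filter level, so the sizes of their changes are no exact folds.

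Of 49 interferon response and class I genes 3 fell and none rose. With no fold threshold 19 were lower (38.8%, against 10.2% of all genes) and 4 higher (8.16%, against 13%), with a median of -0.13. After median centring 9 were lower and 14 higher, with a median of 0.06. RT1-N3, a nonclassical class I gene, had 1072, 955 and 1156 at 12 weeks and 108, 98.2 and 111 at 18 weeks, a change of -3.14 ± 0.0949 (adjusted p = 1.48e-11, limma). Its other probe set did not pass (-0.42, adjusted p = 0.139 over probe sets, limma), and its mean at 16 weeks was 1349. RT1-CE2, a class I gene named after its values were seen, fell by 1.09 (SE 0.10, and by 0.90 after median centring), with a mean of 4653 at 16 weeks, and class I genes are near-identical copies that may share signal. Ifit1, an interferon-induced binder of foreign RNA, went from 399, 397 and 523 to 78, 65.5 and 106 (-2.21 ± 0.24, adjusted p = 1.4e-05, limma). Mx2, an interferon-induced GTPase, went from 3565, 3867 and 3924 to 1422, 1459 and 1293 (-1.43 ± 0.15), with a mean of 51.9 at 16 weeks. Its other probe set did not pass (-0.20), and as the mean of its probe sets Mx2 changed by -0.82. The interferon regulator Irf7 was lower (-0.72 ± 0.0951) and the membrane tether Bst2 higher (0.62 ± 0.0622), and both were named after their values were seen.

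Gstp1, the placental glutathione transferase that marks altered foci in rats, had 25419, 26656 and 26241 at 12 weeks and 24233, 22842 and 25435 at 18 weeks, with overlapping arrays (-0.11 ± 0.0559, adjusted p = 0.169, limma, and 0.08 after median centring). These signals and those of Akr1b8, an aldo-keto reductase of foci (0.01 ± 0.10), lie in the range where saturation was not tested. Aldh3a1 (-0.26 ± 0.22) and Ggt1 (-0.27 ± 0.14), further foci enzymes, did not pass, although the arrays of the 2 times did not overlap in either. Aldh3a1 had 5583, 6016 and 5788 at 12 weeks and 5003, 4893 and 4661 at 18 weeks. Ggt1 had 2119, 2296 and 2105 against 1691, 1749 and 1950. Afp, alpha-fetoprotein, was higher by 0.26 ± 0.0612. Lcn2 was the only one of 27 preneoplastic and oncofetal genes to fall and none rose. None of 31 mitosis genes, 33 replication genes, 20 p53 targets or 26 NRF2 targets rose or fell. With no fold threshold 10 replication genes were higher and 3 lower, 7 p53 targets higher and 1 lower, and 3 NRF2 targets higher and 8 lower. After median centring 16 replication genes, 10 p53 targets and 4 NRF2 targets were higher and none of these lists had a lower member. The mitotic kinase Cdk1 (0.02 ± 0.12), the proliferation antigen Mki67 (0.13 ± 0.0669) and the topoisomerase Top2a (0.23 ± 0.12) had overlapping arrays. Cyclin D1, Ccnd1, was lower (-0.49 ± 0.10), and Cdkn1a, the p21 inhibitor induced by p53, was higher, from 2781, 3150 and 3022 to 4835, 4846 and 4910 (0.70 ± 0.12, adjusted p = 0.000787, limma). The p53 regulator Mdm2 did not pass (0.08 ± 0.0466, adjusted p = 0.245, limma). The NRF2 targets Nqo1 (-0.21 ± 0.0514) and Gclc (-0.26 ± 0.0476) were lower.

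Of 52 respiratory chain genes 33 were higher (63.5%), of 61 cytosolic ribosomal protein genes 27 (44.3%) and of 30 proteasome genes 21 (70%). The share of all genes was 13%. The list medians were 0.18, 0.13 and 0.20, no member was lower, and none rose by 2-fold. After quantile normalization 12, 5 and 7 members were higher, with medians of 0.08, 0.06 and 0.12. After median centring 51, 61 and 27 were higher, with medians of 0.37, 0.33 and 0.39. Among all genes tested, the brightest of the 5 signal groups had a median change of 0.10 as deposited and 0.02 after quantile normalization. The part of this drift with signal in the counts of these lists was not tested. Atp5if1, an inhibitor of the mitochondrial ATPase named after its values were seen, went from 4221, 4193 and 4310 to 895, 1360 and 1126 (-1.92 ± 0.10), while its 3 other probe sets did not pass (0.09, -0.32 and -0.40). Gapdh (0.14 ± 0.0533) and Actb (0.00 ± 0.041), often used as reference genes, did not pass, and 28 of the 56 lists held no gene that rose or fell.

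**Figure D5:**
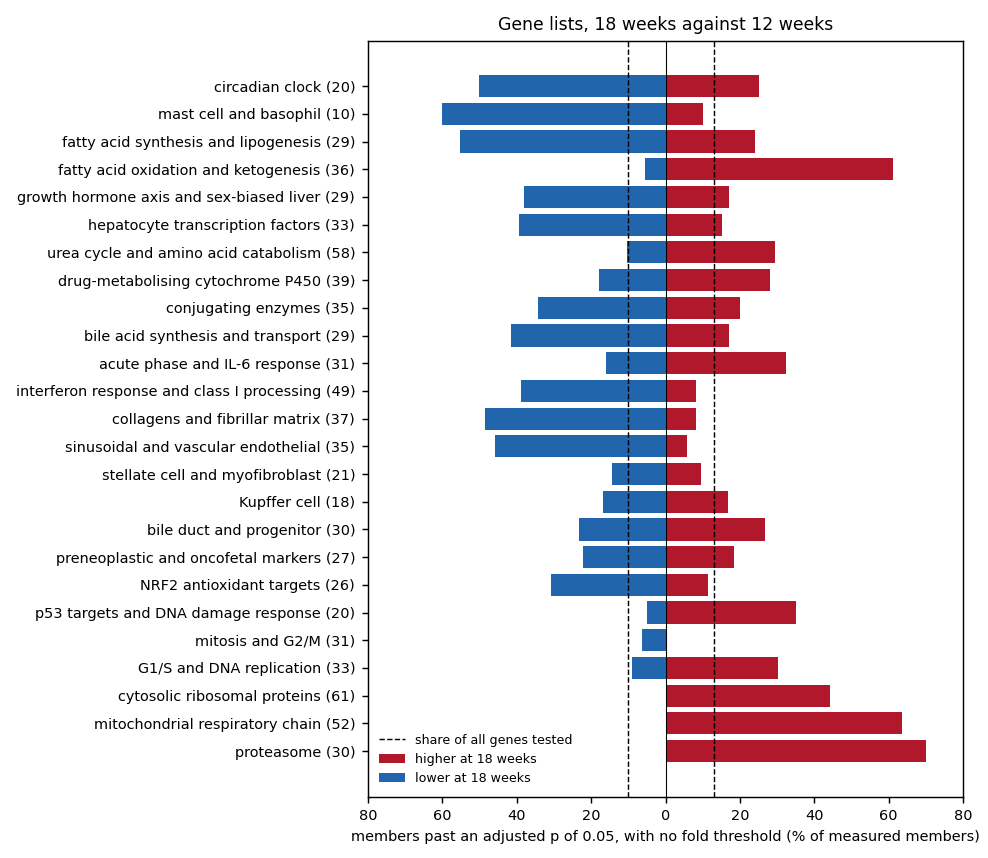
Share of the measured members of 25 gene lists with an adjusted p under 0.05 and no fold threshold (horizontal, %), higher at 18 weeks to the right in red and lower to the left in blue, with the number of members measured in brackets. Dashed lines mark the shares of all genes tested, 13% higher and 10.2% lower; fatty acid oxidation reaches 61.1% higher, and lipogenesis 55.2% and collagens 48.6% lower, as deposited. After median centring the balance turned from more members lower to more higher in the lists of lipogenesis, hepatocyte transcription factors, conjugating enzymes, bile acids, interferon response, stellate cells, preneoplastic markers, NRF2 targets and mitosis.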

How the data were processed

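Total RNA was labelled and hybridised to 18 arrays in 6 groups of 3, per the labels' protocols, and processed with GCOS 2.0, per the submitters' processing notes. Neither the scaling target nor the probe annotation version is given in the sources used here. In the deposited value table each probe set has 1 linear intensity for every array, already scaled by the authors. A deposited workbook holds gene symbols, signals, and the authors' log2 ratios of treated to normal arrays, pair by pair, per the file headers. Its 12-week and 18-week signals matched the value table to within 0.10, and its 3 normal columns hold the values in another row order. These and other per-sample columns, 84 in all, were not used.

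Of 31099 probe sets 19885 named 1 gene (13891 genes), 11134 named none, 23 named several and 57 were controls. Symbols were those deposited, kept as current symbols for 15165 probe sets and updated from a synonym for 3206 in RefSeq's gene table (GRCr8). The deposited symbol stood alone for 1492, and an accession gave the name for 22. Signals were transformed to log2(signal + 16). Probe sets with a mean above the 40th percentile (94.7) were kept, and the brightest of each gene was tested, which left 10451 genes. The 18 arrays were fitted as 6 group means in limma 3.58.1 (R 4.3.3), and the contrast of 18 with 12 weeks was tested two-sided with Benjamini-Hochberg adjustment over all genes. A call needed an adjusted p under 0.05 and a 2-fold change. On simulated data with this layout 98 of 98 tested genes changed by 1.5 and 97 of 97 changed by 2.5 (log2) were called among 10449 genes, with 0 false calls. The simulation held no drift with signal, no change near 2-fold and no spread beyond that between arrays. It therefore cannot show how many calls err under those conditions.

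Genes were named by a rule: the 10 largest rises and 10 largest falls, up to 4 called members per list and direction, and a set fixed by name. The largest rises and falls were taken without provisional symbols and only where the arrays of the 2 times did not overlap. All 99 changed genes met the condition on overlap. The rule gave 100 genes, of which not all are reported here. The comparison, the 56 gene lists and the rule were chosen with earlier results of these data known. Lists are described by counts and medians, with no list test. The number of arrays limits the precision. Replicate numbers do not pair the arrays: deviations of same-numbered arrays from their group means correlated at 0.0477, -0.000223 and 0.17. Promoter windows came from RefSeq (GRCr8). Python 3.11.15 (numpy 2.4.6, pandas 2.3.3, matplotlib 3.10.9) gave the tables and figures. Alternatives covered scaling, pseudocount, filter, probe set choice, fold threshold, variance model, arrays in the fit, a replicate block and each array left out. All probe sets with quantile normalization and the authors' deposited log2 ratios were added after the data were seen.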

Additional observations from a re-analysis of the deposited data

How the results depend on the processing

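The total of 99 genes was 151 with no filter, 241 of 18608 probe sets (1.3%) with every probe set, 194 with every probe set after quantile normalization, 2425 with no fold threshold and 28 at 3-fold. Rises, 38 as reported, numbered 68 after median centring, 1355 with no fold threshold, 6 at 3-fold and 70 for every probe set after quantile normalization. Falls, 61 as reported, numbered 105 with no filter, 38 with the filter at the 60th percentile, 187 with every probe set, 124 with every probe set after quantile normalization, 1070 with no fold threshold and 22 at 3-fold. The number of features tested differed with filter and probe set, and the cause of these moves was not tested. Leaving out each array in turn gave 95 to 121 genes, 34 to 43 of them higher and 58 to 81 lower. With the replicate number as a block there were 99 (38 higher and 61 lower), all of them the same genes, and the block changed no other call; not every array correlated best with its own number. Of the 99 genes 91 were also called after quantile normalization and 84 after median centring. In the authors' deposited table the difference of mean log2 ratios had the same sign for 99 of 99 genes.

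None of the named genes that changed sign under an alternative was called. Under median centring the change was 0.08 for Gstp1, 0.07 for Tgfb1, 0.02 for Epcam, 0.11 for Alb and Cyp7a1, 0.03 for Cyp1a2, 0.18 for Cd68 and Cd3e, and 0.19 for Actb. Quantile normalization gave -0.02 for Cps1 and 0.16 for Cd3e, over genes and over probe sets. Averaging the probe sets of a gene gave -0.05 for Mdm2 and Glul and 0.22 for Cd3e. With an array left out, Akr1b8 ranged from -0.02 to 0.03, Cdk1 from -0.05 to 0.07, Tgfb1 from -0.23 to 0.05, Cd68 from -0.04 to 0.01, Cd3e from -0.20 to 0.11 and Actb from -0.02 to 0.02. Low signals limit the dim genes: 26 of the 99 had a 12-week or 18-week mean below 94.7, and no detection calls were used.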

Other observations

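Further changed genes lay outside the lists and were named after their values were seen. Meg3, a maternally expressed long noncoding RNA, fell from 527 ± 16 to 192 ± 22.5 (n = 3 arrays; -1.39 ± 0.25, adjusted p = 0.00101, limma), and both of its other probe sets also fell. Slfn3, a schlafen family member, fell from 3141 ± 206 to 1123 ± 228 (-1.49 ± 0.15). Enpp2, which encodes the secreted lysophospholipase autotaxin, fell from 4944 ± 189 to 2208 ± 75.2 (-1.16 ± 0.0508, and -0.96 after median centring). Aldh1b1, a mitochondrial aldehyde dehydrogenase, fell from 500 ± 25.1 to 209 ± 45.2 (-1.21 ± 0.10). Ubd, a ubiquitin-like modifier, rose from 6600 ± 270 to 14277 ± 510 (1.11 ± 0.0536).

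Of 4709 probe sets above the filter that name no single gene, 10 were higher and 90 lower by the same thresholds as deposited, and 15 and 47 after quantile normalization. Over 5 equal groups from the dimmest to the brightest their median change was -0.30, -0.25, -0.18, -0.10 and -0.01.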
